A study of Mus musculus with 10 samples.

Results

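The subject is the set of 960 open chromatin regions, of 94823 measured, that were more accessible in iNKT2 cells of SKG mice than in iNKT2 cells of BALB/c mice. The regions were chosen by their iNKT2 values alone. Levels are CPM (counts per 1e6 of a library's insertions), with library totals corrected by a TMM factor, a scaling that assumes most regions do not change. A region was taken when its mean in SKG iNKT2 plus 0.5 CPM was at least 2 times its mean in BALB/c iNKT2 plus 0.5 CPM, its SKG iNKT2 mean was at least 2 CPM, and its lowest SKG iNKT2 library lay above its highest BALB/c iNKT2 library. The rule kept 1.01% of all regions. Turned round, the same rule kept 6110 regions higher in BALB/c iNKT2, or 6.44%.

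The measurements were ATAC-seq, in which a transposase cuts accessible DNA, on invariant natural killer T (iNKT) cells sorted from the thymus of mice aged 8 to 10 weeks. Each genotype gave 2 libraries of iNKT1 cells and 3 of iNKT2 cells, 10 in all, and no treatment is named for any of them. SKG mice carry a hypomorphic Zap70 mutation on the BALB/c background, in every cell of the body, so an effect inside iNKT cells and an effect of their surroundings cannot be told apart. By the study's methods iNKT1 cells were sorted as CD27+ CD122+ and iNKT2 cells as CD27+ CD122-. The labels do not say whether libraries of a group came from separate mice, so p-values measure the spread between these libraries, which may be technical.

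Zap70 is the kinase that carries the signal of the T cell receptor to calcium, MAP kinase and NF-kB pathways, and a hypomorphic allele weakens that signal. iNKT1 cells make interferon gamma and depend on T-bet, whereas iNKT2 cells make interleukin 4 and carry high levels of the transcription factor PLZF. An open region usually marks a promoter or enhancer held free of nucleosomes by bound factors, among which NF-kB dimers, STAT proteins downstream of cytokine receptors and Runx proteins bind well-known short sequences in T cells.

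The central stretches of 8 of the 960 regions are shown first, because the motif strings they hold recur in the results. Capitals mark matches, on either strand, to the 10-letter NF-kB string, to the STAT string TTCNNNGAA or to the Runx string TGTGGTT. Kdm2b, Fam49b and Ern1 stand for the regions that were lower in SKG iNKT1, the Tnfaip3, Foxp3 and Ly6e windows for loci with several regions in the set, the chromosome 10 window for one of the largest ratios, and the window between Trbc2 and Trbv31 for the highest level. All are RefSeq sequence of GRCm38 (mm10), plus strand, from the C57BL/6J reference and not from BALB/c or SKG mice.
Kdm2b intron, chr5:122949114-122949413: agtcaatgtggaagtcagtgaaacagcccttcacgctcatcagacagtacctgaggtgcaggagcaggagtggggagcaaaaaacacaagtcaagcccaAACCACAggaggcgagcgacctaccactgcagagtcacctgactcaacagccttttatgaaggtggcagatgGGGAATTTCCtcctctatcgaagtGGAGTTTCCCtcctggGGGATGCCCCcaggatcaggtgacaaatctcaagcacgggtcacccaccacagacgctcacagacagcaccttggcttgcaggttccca
Fam49b upstream, chr15:64067565-64067864: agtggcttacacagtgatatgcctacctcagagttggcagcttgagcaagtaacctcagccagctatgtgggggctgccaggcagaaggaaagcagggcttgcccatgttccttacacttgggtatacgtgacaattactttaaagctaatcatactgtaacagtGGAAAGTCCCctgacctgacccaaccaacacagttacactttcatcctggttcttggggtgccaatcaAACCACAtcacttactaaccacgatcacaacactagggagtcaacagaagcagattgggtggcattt
Ern1 intron, chr11:106416246-106416545: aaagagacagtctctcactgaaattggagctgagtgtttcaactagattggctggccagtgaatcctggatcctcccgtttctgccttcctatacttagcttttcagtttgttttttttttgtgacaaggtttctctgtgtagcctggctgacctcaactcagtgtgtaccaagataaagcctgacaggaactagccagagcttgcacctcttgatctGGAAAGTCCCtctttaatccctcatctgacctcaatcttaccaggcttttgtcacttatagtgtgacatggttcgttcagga
Tnfaip3 intron, chr10:19009274-19009573: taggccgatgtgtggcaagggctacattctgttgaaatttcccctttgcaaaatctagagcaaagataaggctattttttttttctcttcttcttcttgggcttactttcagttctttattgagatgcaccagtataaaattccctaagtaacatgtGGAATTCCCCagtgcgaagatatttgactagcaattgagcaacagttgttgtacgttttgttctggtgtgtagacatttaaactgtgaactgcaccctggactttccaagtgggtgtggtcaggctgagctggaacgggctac
Foxp3 upstream, chrX:7567629-7567928: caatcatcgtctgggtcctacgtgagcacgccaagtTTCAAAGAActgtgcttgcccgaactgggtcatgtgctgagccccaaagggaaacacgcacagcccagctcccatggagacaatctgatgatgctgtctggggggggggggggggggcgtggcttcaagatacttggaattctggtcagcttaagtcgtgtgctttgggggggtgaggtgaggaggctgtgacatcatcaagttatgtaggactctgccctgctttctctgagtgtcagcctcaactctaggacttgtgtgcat
chromosome 10 intergenic, chr10:100741143-100741442: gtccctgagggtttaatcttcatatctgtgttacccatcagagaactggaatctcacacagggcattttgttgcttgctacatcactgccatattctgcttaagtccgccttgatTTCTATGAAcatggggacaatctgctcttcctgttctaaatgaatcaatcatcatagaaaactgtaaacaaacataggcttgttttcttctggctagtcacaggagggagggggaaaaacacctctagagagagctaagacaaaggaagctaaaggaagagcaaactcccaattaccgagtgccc
Trbc2 to Trbv31, chr6:41554216-41554515: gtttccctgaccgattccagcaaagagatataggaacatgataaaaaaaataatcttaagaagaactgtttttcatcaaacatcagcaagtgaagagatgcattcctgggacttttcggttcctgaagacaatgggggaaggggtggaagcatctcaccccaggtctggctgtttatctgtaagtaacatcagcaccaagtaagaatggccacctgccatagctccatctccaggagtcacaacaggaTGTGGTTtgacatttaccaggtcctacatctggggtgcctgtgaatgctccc
Ly6e upstream, chr15:74935236-74935535: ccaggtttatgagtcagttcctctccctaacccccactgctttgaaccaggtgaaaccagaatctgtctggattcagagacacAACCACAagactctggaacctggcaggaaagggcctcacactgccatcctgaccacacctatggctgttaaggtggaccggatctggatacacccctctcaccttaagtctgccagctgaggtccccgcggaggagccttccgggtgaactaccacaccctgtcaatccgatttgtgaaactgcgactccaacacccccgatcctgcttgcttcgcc
The Kdm2b window held 3 NF-kB matches within its 300 bases, and the Fam49b, Ern1 and Tnfaip3 windows held 1 each. The Foxp3 and chromosome 10 windows held 1 STAT match each, and the Trb and Ly6e windows 1 Runx match each. A match is a description of letters and not evidence of binding.

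Motif strings were counted in the central 300 bases of every region. The NF-kB string was found in 199 of the 960 regions (20.7%, Wilson 95% interval 18.3% to 23.4%), against 4.73% of all regions and 3.5% of the 6110 that were higher in BALB/c iNKT2, called the opposite set from here on. The STAT string was found in 178 (18.5%), against 8.75% of all regions and 8.84% of the opposite set. The Runx string was found in 220 (22.9%), against 13.2% and 15.2%. The GATA string AGATAA stood at 19.9%, against 14.3% and 18.5%. These 4 strings were the ones with the largest excess over all regions among the 15 searched.

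Other strings for factors of receptor signalling showed no such excess. The NFAT string TTTCCA was in 21.2% of the set and 23.4% of all regions, but in 38.7% of the opposite set, and over whole regions in 31.6%, 31.3% and 45.2%. The AP-1 string TGANTCA was in 11.9% of the set, 10.6% of all regions and 15.5% of the opposite set. The composite Egr string GNGTGGGNG was in 8.96%, 12.9% and 17.7% in the same order. NFAT and Egr proteins are induced or activated by T cell receptor signals, as is NF-kB. The ETS string CCGGAA, common in promoters, was in 5.31% of the set and 9.26% of all regions, and its share among regions without a promoter was 4.88% and 6.73%. The NF-kB excess was present in each of 5 bins of GC content, from 17.6% against 2.20% in the lowest bin to 36.7% against 7.16% in the highest. It was also present in each bin of the rule's ratio, where 20.9% of regions with a ratio of 2 to 2.5 and 13.3% of those with a ratio of 4 or more held the string, and the STAT string was in 97 of 589 and 15 of 60 of the same regions. Both strings together occurred in 39 regions of the set (4.06%) and in 0.434% of all regions. An NF-kB match can share letters with an adjoining STAT, NFAT or ETS match.

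**Figure D1:**
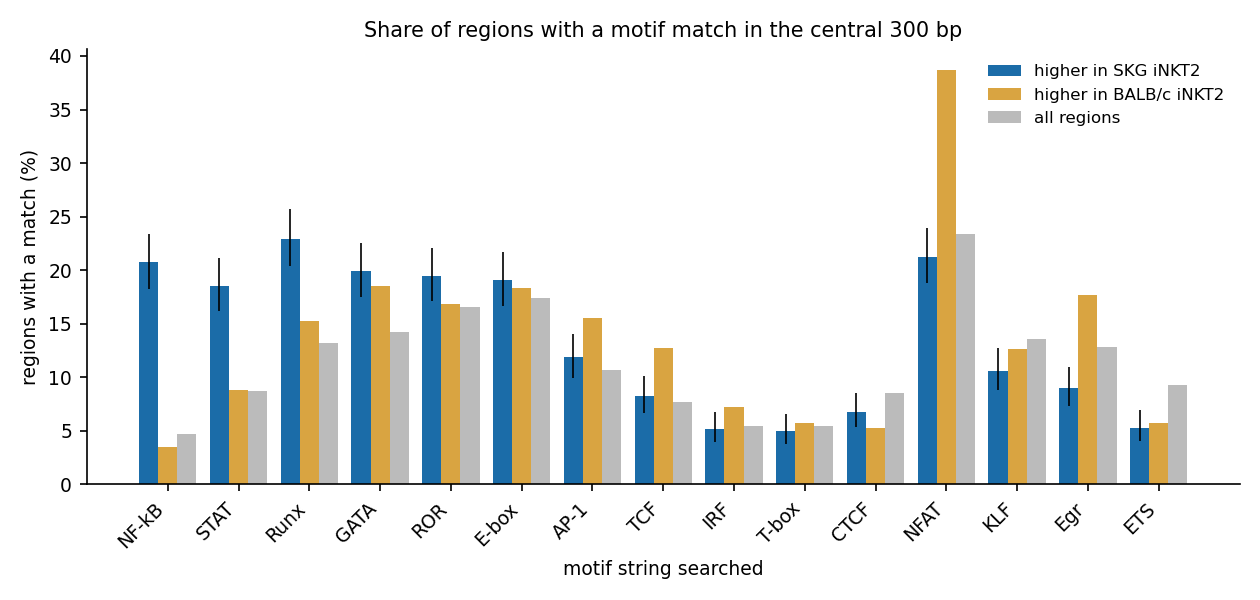
Share of regions (%, vertical axis) whose central 300 bases hold each of 15 motif strings, for the 960 regions higher in SKG iNKT2 (blue, with Wilson 95% intervals), the 6110 higher in BALB/c iNKT2 (yellow) and all 94823 regions (grey). NF-kB reaches 20.7% in the blue bars against 4.73% in the grey, STAT 18.5% against 8.75%, and NFAT and Egr are highest in the yellow bars.

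Insertions in the listed regions totalled 14988590 to 36342635 per library. The sorted labels were checked against marker genes by the summed level of regions at their transcription starts. For the list of iNKT1 and natural killer effector genes that sum was 765 to 799 CPM in BALB/c iNKT1, 797 to 813 in SKG iNKT1, 168 to 216 in BALB/c iNKT2 and 197 to 247 in SKG iNKT2. For the iNKT2 list, which includes Zbtb16 (the gene of PLZF), it was 212 to 230, 231 to 233, 221 to 246 and 265 to 323, so this list parted the subsets little. For B cell, myeloid, immature thymocyte and thymic epithelial lists that sum was at most 17.9 CPM in any library, but only 6 of their 26 genes had a region at the start, and the starts of Spi1, Rag1, Ptcra and Foxn1 had none. Over all regions near its genes, the immature thymocyte list summed to 36.1 to 36.3 CPM in BALB/c iNKT1, 65.7 to 69.9 in SKG iNKT1, 73.6 to 81.6 in BALB/c iNKT2 and 79.9 to 83.9 in SKG iNKT2. The level below which nearly no region fell differed between groups. The 5th percentile of CPM per kb was 1.41 to 1.92 in BALB/c iNKT2, 0.612 to 1.01 in SKG iNKT2 and 0.214 to 0.364 in iNKT1 libraries. Subtracting it raised the number of regions that met the rule from 960 to 1961, of which 912 were in the original set.

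The ratio that chose the regions was near its threshold for most of them. Its median was 2.34, 791 regions had a ratio under 3 and 60 a ratio of 4 or more, with a maximum of 17.8. Over the set, the median level per library was 5.51 to 5.97 CPM in SKG iNKT2 and 1.81 to 2.13 in BALB/c iNKT2, values that the rule itself set apart. In the libraries the rule did not use, the median was 2.08 and 2.31 CPM in BALB/c iNKT1 and 2.76 and 2.89 in SKG iNKT1. Just inside the threshold lay regions at Grap2 (2.002) and Fkbp15 (2.003), and just outside lay regions at Gls2 (1.999), Prag1 (1.999) and Pde6h (1.999). Of the 960, 514 met the rule under each of 5 other scalings and each omission of 1 or both libraries of a number, 12 settings in all. Replicate 1 of SKG iNKT2 held the highest of the 3 values in 415 regions (43.2%), replicate 2 in 260 and replicate 3 in 285.

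The regions lay away from promoters. Introns held 497 (51.8%) and intergenic DNA 378 (39.4%), against 45.1% and 35.0% of all regions, while promoters held 37 (3.85%) against 13.4%. In the opposite set, 3.34% lay at promoters. Regions of the set tended to lie beside each other. Of the 1919 nearest neighbours of the 960 regions, 372 (19.4%) were themselves in the set, against 1.01% of all regions, and the same figure for the regions higher in BALB/c iNKT2 was 29.6% against 6.44%. Even so, 476 regions were alone in their 100-kb window. The 3 windows with most were in the Trb locus on chromosome 6 (23 of 33 regions), around Tnfaip3 on chromosome 10 (15 of 30) and in the Ly6 cluster on chromosome 15 (13 of 28).

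The genotype contrast in iNKT1 cells was not used by the rule and could be tested. In a quasi-likelihood fit of the 4 iNKT1 libraries with edgeR, 216 of the 960 regions (22.5%) were higher in SKG iNKT1 at an adjusted p under 0.05, against 5.16% of all regions. In the same fit 78 (8.125%) were lower in SKG iNKT1, against 7.21% of all regions. With an adjusted p under 0.01 and a 4-fold change, 66 (6.875%) were higher, against 0.362% of all regions. At these thresholds 7 (0.729%) were lower, against 1.14% of all regions. The median log2 change in iNKT1 was 0.22 over the set and -0.03 over all regions, and 60.3% of the set lay above 0 against 47.1% of all regions. The largest block, 666 regions, was not called in iNKT1 in either direction. Markers of immature thymocytes moved with the genotype in iNKT1 too, with 8 of 19 regions of that list higher in SKG iNKT1, 0 lower and a median log2 change of 1.04, and their part in these results was not tested. Both SKG iNKT1 libraries lay above both BALB/c iNKT1 libraries in 412 regions (42.9%), against 24.4% of all regions. They lay below them in 228 (23.75%), against 29.0% of all regions.

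These calls depend on how the spread is estimated. With either BALB/c iNKT1 library left out, edgeR called no region of the 94823 (smallest adjusted p 0.353), although 214 and 231 regions of the set were higher, and 99 and 38 lower, at an unadjusted p under 0.05 without BALB/c replicate 1 and 2. In a fit of all 10 libraries, 155 (16.1%) were higher, against 1.66% of all regions. In that fit 30 (3.125%) were lower, against 3.39% of all regions. Among them were 153 and 30 of the calls above. That fit takes part of its spread from the iNKT2 libraries that chose the regions.

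**Figure D2:**
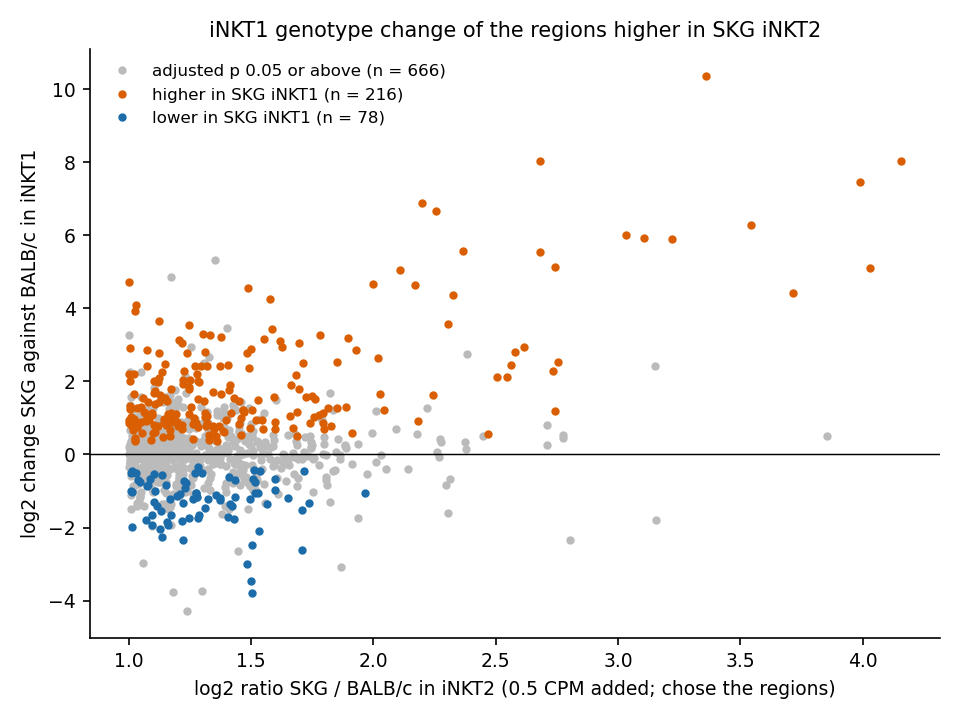
Each of the 960 regions by the log2 ratio that chose it in iNKT2 (horizontal axis) and its log2 change between SKG and BALB/c in iNKT1 (vertical axis, edgeR fit of 4 libraries). Orange points are the 216 regions called higher and blue points the 78 called lower in SKG iNKT1, grey points the 666 not called. Of the 60 regions with a ratio of 4 or more none is blue, and the median ratio is 2.50 for orange, 2.42 for blue and 2.30 for grey points.

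The motif content of the set differed with what happened in iNKT1. Among the 216 regions higher in SKG iNKT1, 8 held the NF-kB string (3.70%, Wilson 95% interval 1.89% to 7.14%). Among the 666 not called, 163 held it (24.5%, 21.4% to 27.9%), and among the 78 lower in SKG iNKT1, 28 did (35.9%, 26.1% to 47.0%). So the NF-kB excess of the set came from regions that were not higher in SKG iNKT1. Outside the set, the string was in 3.00% of regions higher in SKG iNKT1, 4.31% of those not called and 8.82% of those lower. The STAT string was in 25.9%, 16.4% and 16.7% of the 3 blocks of the set, and in 10.6%, 8.48% and 9.31% of the matching regions outside it. These intervals cover counting error only, and neighbouring regions are not independent.

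**Figure D3:**
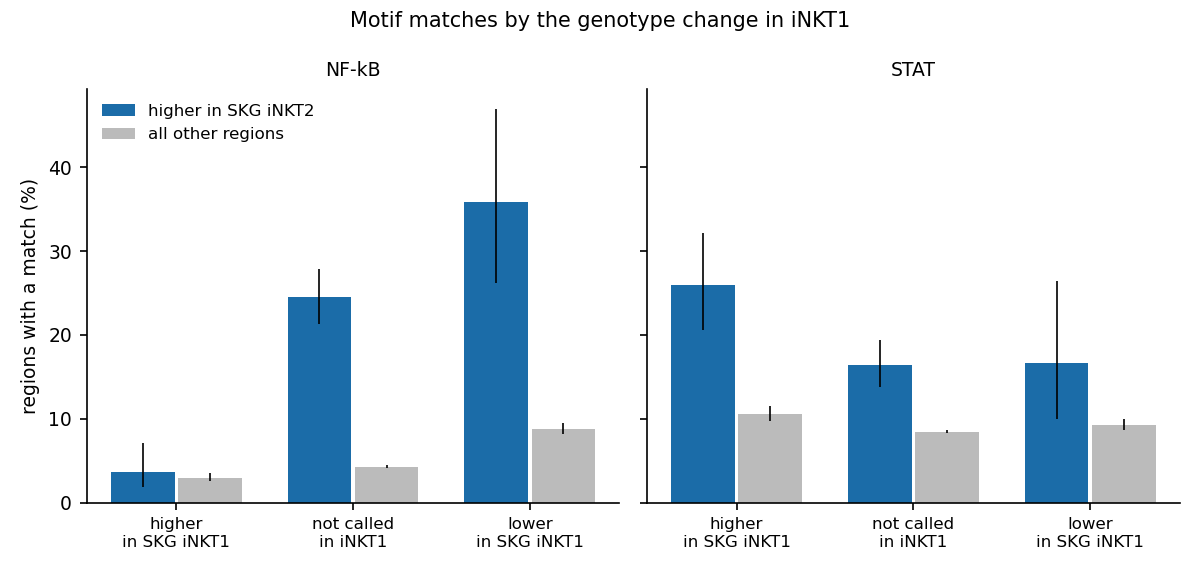
Share of regions (%, vertical axis) holding the NF-kB string (left) or STAT string (right), by whether the region was called higher, not called or called lower in SKG iNKT1, for the 960 regions higher in SKG iNKT2 (blue) and all other regions (grey), with Wilson 95% intervals. For NF-kB the blue bars stand at 3.70%, 24.5% and 35.9%.

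Summed over the 199 regions with an NF-kB string, the level was 1966, 1599 and 1861 CPM in the SKG iNKT2 libraries and 692, 746 and 605 in the BALB/c iNKT2 libraries. In iNKT1 the same sum was 939 and 1187 CPM in BALB/c and 813 and 912 in SKG, so both SKG libraries lay below both BALB/c libraries. The sum over the 761 regions without the string was 4848 and 5143 CPM in BALB/c iNKT1 and 6156 and 6694 in SKG iNKT1, with the genotypes in the opposite order. Both orders were also found outside the set. Other regions with the string summed to 60132.2 and 62244.5 CPM in BALB/c iNKT1 and 58713.9 and 60043.4 in SKG iNKT1. Other regions without it summed to 1.02e6 CPM in both BALB/c iNKT1 libraries and 1.04e6 and 1.05e6 in SKG iNKT1. In the sum over the 199 regions the 2 BALB/c iNKT1 libraries were not alike, replicate 2 being the higher. Among the 78 regions lower in SKG iNKT1, BALB/c iNKT1 replicate 2 lay above replicate 1 in 73, and their sum there was 1.30 times that of replicate 1. Over the 216 regions higher in SKG iNKT1 the same ratio was 0.977.

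A further measure was whether a region was already open in iNKT1 cells of the control strain. In 398 of the 960 regions (41.5%) the BALB/c iNKT1 mean was at least 0.5 of the SKG iNKT2 mean. For the regions higher in BALB/c iNKT2 the BALB/c iNKT1 mean was set against their BALB/c iNKT2 mean instead, and the share was 24.9%. The 2 shares thus use different reference levels, and no share over all regions was computed. By contrast, 181 regions stayed under 1 CPM in each of the 4 iNKT1 libraries. Among the 78 regions lower in SKG iNKT1, 57 (73.1%) were open in BALB/c iNKT1 by this measure, among the 216 higher 92 (42.6%), and among the 666 not called 249 (37.4%). The call and this measure share the BALB/c iNKT1 libraries. A high level there favours both a call as lower and being open, so these shares are no independent result.

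Genes of NF-kB signalling were represented mainly by a single locus. Of 239 regions nearest to the 22 genes of a list of NF-kB factors and targets, 26 (10.9%) were in the set, against 1.01% of all regions, and 16 of these belonged to Tnfaip3. Tnfaip3 encodes A20, a ubiquitin-editing enzyme that is induced by NF-kB and restrains it. Tnip1, whose product binds A20, had 4, Nfkbiz had 2, and Nfkbia (an inhibitor that retains NF-kB in the cytoplasm), Traf1, Birc3 and Map3k14 had 1 each. No region at Rel, Rela, Relb, Nfkb1 or Nfkb2, the genes of the factors themselves, was in the set. They had only 7, 3, 3, 36 and 6 regions, so none is close to what a share of 1.01% gives. Nfkb1 had 4 regions in the opposite set, and the whole list had 11 there (4.60%), against 6.44% of all regions.

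The Tnfaip3 regions ran through the gene body and past its 3′ end, with 1 more 62606 bp from the start, and 1 of the 16 held an NF-kB string. Summed over the 16 regions, the level was 204, 133 and 167 CPM in the SKG iNKT2 libraries and 40.0, 69.8 and 60.6 in the BALB/c iNKT2 libraries. In iNKT1 it was 49.7 and 121.9 CPM in BALB/c and 26.3 and 30.5 in SKG. SKG was thus the lower genotype in iNKT1, without overlap, although the BALB/c libraries differed widely. In the edgeR fit of 4 libraries 14 of the 16 were lower in SKG iNKT1, against 7.21% of all regions. Log2 changes over all 16 ran from -3.79 to -0.69. In the fit of 10 libraries 5 were lower, against 3.39% of all regions. The intron region whose sequence is shown, chr10:19009134-19009713, was 27.9, 17.1 and 19.1 CPM in SKG iNKT2 and 7.18, 7.17 and 6.97 in BALB/c iNKT2. It was 6.78 and 12.5 CPM in BALB/c iNKT1 and 5.72 and 6.03 in SKG iNKT1 (log2 change -0.69, SE 0.24, edgeR adjusted p 0.073). It was 1 of the 2 that did not pass.

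Tnip1 behaved differently. Its strongest region, in an intron at chr11:54958416-54959006, was 49.1, 47.5 and 47.6 CPM in SKG iNKT2 and 18.2, 22.4 and 21.1 in BALB/c iNKT2, and lay between 22.5 and 29.6 in the iNKT1 libraries (log2 change 0.19, SE 0.13, edgeR adjusted p 0.40). Of the 26 regions of the NF-kB list, 16 were lower and 0 higher in SKG iNKT1, with 42 lower and 6 higher among all 239 regions of the list.

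Single regions with NF-kB strings led the calls lower in SKG iNKT1. The region upstream of Fam49b, an actin regulator, at chr15:64067477-64067951 was 12.7, 10.3 and 10.3 CPM in SKG iNKT2 and 3.64, 3.89 and 3.88 in BALB/c iNKT2. In iNKT1 the order was reversed, with 21.4 and 24.2 CPM in BALB/c and 4.69 and 8.53 in SKG (log2 change -1.78, SE 0.19, edgeR adjusted p 6.3e-06). The Kdm2b intron region at chr5:122948964-122949562, with its 3 NF-kB strings, was 54.3, 35.5 and 46.8 CPM in SKG iNKT2 and 21.0, 21.7 and 17.3 in BALB/c iNKT2. Kdm2b encodes a histone demethylase that binds CpG islands. In iNKT1 the region was 23.2 and 33.0 CPM in BALB/c and 12.3 and 11.9 in SKG (log2 change -1.21, SE 0.16, edgeR adjusted p 4.3e-05). The Ern1 intron region at chr11:106416018-106416773 was 35.8 and 49.7 CPM in BALB/c iNKT1 and 18.4 and 22.5 in SKG iNKT1 (log2 change -1.06, SE 0.14, edgeR adjusted p 5.3e-05). Ern1 encodes IRE1, a sensor of unfolded proteins. The fourth of these regions, in a Babam2 intron at chr5:31860318-31860809, held a STAT and a Runx string and no NF-kB string (log2 change -1.92, SE 0.27, edgeR adjusted p 7.6e-05). In all 4 regions each genotype's iNKT1 libraries lay apart, which their choice by smallest p favours. Of all regions, 29.0% had both SKG iNKT1 libraries below both BALB/c iNKT1 libraries.

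Regions at regulatory T cell genes formed a second group. Of 53 regions nearest to 5 marker genes, 9 (17.0%) were in the set, against 1.01% of all regions. They were 4 of the 6 at Foxp3, 4 of 18 at Il2ra and 1 of 7 at Tnfrsf18. Ctla4 had 0 of 18, with 1 in the opposite set, and Ikzf4 had 0 of 4. Foxp3 is the lineage factor of regulatory T cells, Il2ra the high-affinity chain of the interleukin 2 receptor and Tnfrsf18 the receptor GITR. The 4 Foxp3 regions lay 2742 to 7994 bp upstream of its start, inside introns of the neighbouring gene Ppp1r3f. Their sum was 70.0, 63.1 and 67.2 CPM in SKG iNKT2, 12.5, 20.6 and 21.0 in BALB/c iNKT2, 50.9 and 57.5 in SKG iNKT1 and 25.3 and 23.8 in BALB/c iNKT1. At each region SKG lay above BALB/c in iNKT1 too, whereas that order in iNKT2 was set by the rule. All 4 were higher in SKG iNKT1 in both fits, against 5.16% and 1.66% of all regions. The one shown above, chrX:7567425-7568132, was 9.23 and 9.87 CPM in BALB/c iNKT1 and 20.4 and 24.0 in SKG iNKT1 (log2 change 1.22, SE 0.14, edgeR adjusted p 1.4e-05). In these bulk samples more open chromatin per cell and more cells of another type cannot be told apart. Regions at the starts of 4 of the 5 genes, all but Ctla4, summed to 106 to 113 CPM in SKG iNKT2, 75.2 to 81.8 in BALB/c iNKT2, 123 to 128 in SKG iNKT1 and 116 in both BALB/c iNKT1 libraries, and the part of regulatory T cells in the result was not tested.

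The other members of that list did not follow Foxp3. The Tnfrsf18 region, chr4:156030577-156031389, held an NF-kB string and was 31.6, 20.6 and 22.6 CPM in SKG iNKT2 and 10.3, 7.62 and 4.95 in BALB/c iNKT2. In iNKT1 it was 16.6 and 28.2 CPM in BALB/c and 9.77 and 9.49 in SKG (log2 change -1.20, SE 0.20, edgeR adjusted p 4.3e-04). The strongest Il2ra region, in an intron at chr2:11657401-11658093, was 42.7, 50.1 and 52.4 CPM in SKG iNKT2 and 19.6, 28.1 and 20.5 in BALB/c iNKT2, and 13.3 to 17.2 in iNKT1 (log2 change 0.22, SE 0.14, edgeR adjusted p 0.37). A region 7582 bp from the Il2ra start was 3.55 and 4.72 CPM in BALB/c iNKT1 and 0.964 and 0.642 in SKG iNKT1 (log2 change -2.35, SE 0.33, edgeR adjusted p 9.0e-05).

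Cytokine receptor genes held 18 of their 321 regions in the set (5.61%), against 1.01% of all regions. Il21r had 5, Il2ra and Il4ra 4 each, Il7r and Il10ra 2 each and Il18rap 1. Most of the 18 thus lay at few genes, and neighbouring regions are not independent. Il21r and Il4ra are adjacent on chromosome 7, encode receptor chains that signal through STAT proteins, and had no region in the opposite set. The region between them, chr7:125580944-125581763, was 70.3, 46.1 and 52.1 CPM in SKG iNKT2 and 13.2, 13.3 and 13.0 in BALB/c iNKT2. It was 33.9 and 46.4 CPM in BALB/c iNKT1 and 27.2 and 33.4 in SKG iNKT1 (log2 change -0.40, SE 0.13, edgeR adjusted p 0.059). Each iNKT1 library lay above each BALB/c iNKT2 library. Around Il21r, Il4ra included, the set's 9 regions summed to 103 and 119.5 CPM in BALB/c iNKT1 and 112 and 119.7 in SKG iNKT1. They summed to 109 to 169 CPM in SKG iNKT2 and 37.5 to 39.7 in BALB/c iNKT2, values that the rule set apart. Over the regions of the locus outside the set, the means summed to 243 CPM in BALB/c iNKT1 and 233 in SKG iNKT1. That sum was 125 CPM in SKG iNKT2 and 86.7 in BALB/c iNKT2. One intron region of Il4ra, 9344 bp from its start, was higher in SKG iNKT1 (log2 change 0.59, SE 0.15, edgeR adjusted p 0.014) and held a STAT string. Of the 18 regions 1 was higher and 1 lower in SKG iNKT1, with 8 higher and 36 lower among all 321 regions of the list.

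The T cell receptor beta locus carried the highest levels of the set. Between its first and last segment, with 5 kb on each side, 33 of 79 regions (41.8%) were in the set and 1 in the opposite set. The count for this locus, like those for the other loci below, was chosen after values were seen. The strongest region of all, chr6:41553327-41555403, lies between Trbc2 and Trbv31, the interval that holds the Trb enhancer. It was 370, 737 and 658 CPM in SKG iNKT2, 150, 180 and 177 in BALB/c iNKT2, 183 in each BALB/c iNKT1 library, and 172 and 200 in SKG iNKT1. SKG iNKT2 thus stood apart from the other 3 groups (log2 change in iNKT1 0.02, SE 0.07, edgeR adjusted p 0.90). A second strong region of the locus, chr6:41118217-41118950, was 118, 214 and 171 CPM in SKG iNKT2 and 23.1 to 27.8 in BALB/c iNKT2. Summed over the 33 regions, the level was 872, 1425 and 1247 CPM in SKG iNKT2 and between 303 and 400 in each of the other 7 libraries. In iNKT1, 1 of the 33 was higher in SKG and none lower by the 4-library fit, beside 5.16% and 7.21% of all regions. The fit of all 10 gave 0 in either direction.

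At the alpha and delta locus 4 of 70 regions were in the set, all at its 3′ end. The region chr14:54226915-54228478, between Trac and Dad1, where the Tra enhancer lies, was 190, 314 and 296 CPM in SKG iNKT2 and 94.3, 79.6 and 80.4 in BALB/c iNKT2. In iNKT1 it was 130 and 136 CPM in BALB/c and 118 and 128 in SKG (log2 change -0.11, SE 0.07, edgeR adjusted p 0.35). The neighbouring region chr14:54232816-54234171 was 92.1, 147 and 114 CPM in SKG iNKT2 and 30.0 to 42.1 in BALB/c iNKT2. It was lower in SKG iNKT1 (log2 change -0.46, SE 0.09, edgeR adjusted p 0.0026), a call lost in the fit of 10 libraries (adjusted p 0.25). At both receptor loci replicate 1 was the lowest SKG iNKT2 library, while at Tnfaip3 it was the highest.

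A gene-poor stretch of chromosome 18 was likewise high in SKG iNKT2 libraries, at lower levels. Of 11 regions measured there 9 were in the set, between positions 87297987 and 88381823, with ratios of 3.35 to 14.4. Their sum was 38.8, 89.1 and 60.1 CPM in SKG iNKT2, 3.89 to 5.40 in BALB/c iNKT2 and 1.31 to 2.44 in the 4 iNKT1 libraries. The one with the largest ratio was 9.39, 23.9 and 19.4 CPM in SKG iNKT2 and 0.660 to 0.910 in BALB/c iNKT2. Replicate 1 was again the lowest SKG iNKT2 library. None of the 9 was called in iNKT1 in either direction.

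A different group of loci was higher in SKG in both subsets. In the Ly6 cluster on chromosome 15, whose genes encode small glycosylphosphatidylinositol-anchored surface proteins including Ly6C and Sca-1, 17 of 58 regions were in the set and 0 in the opposite set. They summed to 150, 83.2 and 125 CPM in SKG iNKT2, 15.8 to 16.7 in BALB/c iNKT2, 116 and 112 in SKG iNKT1 and 18.5 and 16.1 in BALB/c iNKT1. The genotypes did not overlap in iNKT1 either, where the rule was not applied, whereas their separation in iNKT2 was set by it. In iNKT1, 16 of the 17 were higher in SKG, against 5.16% of all regions. The fit of all 10 libraries gave 15, against 1.66% of all regions. The region upstream of Ly6e at chr15:74935176-74935595 was 8.08, 4.27 and 7.15 CPM in SKG iNKT2 and at most 0.157 in BALB/c iNKT2. In iNKT1 it was 12.5 and 13.6 CPM in SKG and 0.0896 and 0.264 in BALB/c (log2 change 6.29, SE 0.33, edgeR adjusted p 1.8e-09). That log2 change was 5.59 without BALB/c iNKT1 replicate 1 and 7.10 without replicate 2.

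Chromosome 10 held 2 more such loci. All 5 regions measured at Tmtc2, a gene of an endoplasmic reticulum protein, were in the set, with sums of 83.2, 110 and 90.6 CPM in SKG iNKT2, 21.7 to 37.0 in BALB/c iNKT2, 89.6 and 107 in SKG iNKT1 and 3.43 and 5.33 in BALB/c iNKT1. All 5 were higher in SKG iNKT1 in both fits, against 5.16% and 1.66% of all regions. The promoter region had a log2 change in iNKT1 of 4.55 (SE 0.17, edgeR adjusted p 3.3e-11). The intergenic region at chr10:100740973-100741611 was 17.7, 19.2 and 16.8 CPM in SKG iNKT2, 0.502 to 0.794 in BALB/c iNKT2, 16.4 and 18.7 in SKG iNKT1 and 0.269 and 0.838 in BALB/c iNKT1 (log2 change 5.10, SE 0.29, edgeR adjusted p 4.8e-09). Without BALB/c iNKT1 replicate 1 or 2 the log2 change was 4.38 or 5.999. Around it 6 of 21 regions were in the set, against 1.01% of all regions. Of these 6, 5 were higher in SKG iNKT1, against 5.16% of all regions. One of these, chr10:100770206-100770922, was 45.9 and 56.8 CPM in SKG iNKT1 and 5.11 and 4.36 in BALB/c iNKT1 (log2 change 3.42, SE 0.14, edgeR adjusted p 8.6e-11). Beside it in rank stood a Galnt10 intron region, chr11:57675446-57676171, at 36.4 and 39.3 CPM in SKG iNKT1 against 1.76 and 2.29 in BALB/c iNKT1, and an intergenic region nearest to Dusp6, chr10:99460730-99461448, at 52.3 and 51.3 against 9.29 and 10.2. Both were more open in SKG iNKT1 than in SKG iNKT2, where they did not exceed 14.6 CPM.

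The largest ratio of all belonged to an intron of Pde4b, which encodes a cyclic AMP phosphodiesterase. The region chr4:102516947-102517685 was 8.38, 8.04 and 8.83 CPM in SKG iNKT2 and had no insertion in the 3 BALB/c iNKT2 libraries. Against a floor of 3 insertions over that group, it was at least 264-fold higher. The 5th percentile of all regions in BALB/c iNKT2 was 1.41 to 1.92 CPM per kb, so a level of 0 lies below that group's background. Whether such a fold measures accessibility alone was not tested. The same region was 24.7 and 25.1 CPM in SKG iNKT1 and 0 and 0.220 in BALB/c iNKT1 (log2 change 8.03, SE 0.36, edgeR adjusted p 3.0e-10). Without BALB/c iNKT1 replicate 1 that log2 change was 6.78, and without replicate 2 the remaining BALB/c library is at 0, so the size rests on very few insertions. A second region of the intron, chr4:102518346-102518697, was at 0 in all 5 BALB/c libraries and between 4.43 and 8.34 CPM in all 5 SKG libraries, at least 145-fold higher in iNKT2 and at least 141-fold higher in iNKT1. The third region with no insertion in BALB/c iNKT2, chr5:38598524-38598942, was 3.83, 10.1 and 8.29 CPM in SKG iNKT2, and 5.33 and 2.89 in SKG iNKT1 against 0 and 0.0441 in BALB/c iNKT1. At all 3 regions each SKG library lay above each BALB/c library, an order that the rule set within iNKT2 but not in iNKT1. At the first the SKG iNKT1 libraries also lay above the SKG iNKT2 libraries.

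**Figure D4:**
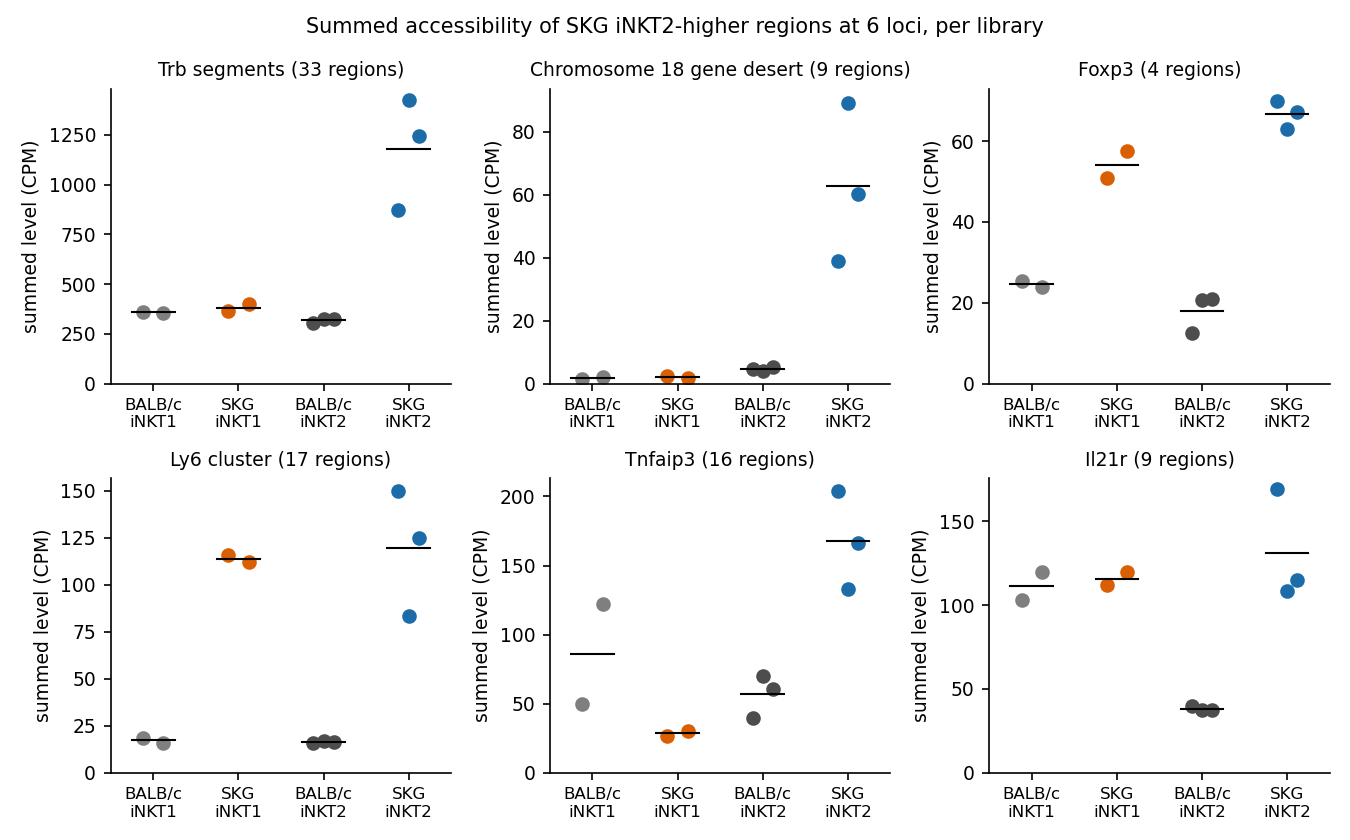
Summed CPM (vertical axis, linear from 0) of the regions of the set at 6 loci, 1 point per library and a line at the group mean. Trb and the chromosome 18 stretch are high in SKG iNKT2 libraries, and Foxp3 and Ly6 in SKG libraries of both subsets. Tnfaip3 is lower in SKG than in BALB/c in iNKT1, and at Il21r the iNKT1 libraries lie above BALB/c iNKT2. That SKG iNKT2 lies above BALB/c iNKT2 was set by the rule at each locus.

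Among the 6 highest levels outside the receptor loci were the Dhx40 promoter region, chr11:86806912-86809248, at 89.0, 74.3 and 105 CPM in SKG iNKT2 and 26.4 to 35.9 in BALB/c iNKT2, and an Etv6 intron region, chr6:134047989-134048685, at 62.8, 91.7 and 90.0 against 35.0 to 43.3. Etv6 encodes an ETS family repressor. Neither passed the test in iNKT1 (edgeR adjusted p 0.995 and 0.088).

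Further lists gave smaller counts. Genes of egress and naive T cells held 11 of 213 regions (5.16%), at Klf3 (3), Il7r (2) and Klf2, S1pr1, Ccr7, Itga4, Ly6c1 and Ly6c2, of which the Ly6c1 and Ly6c2 regions were higher in SKG iNKT1. Klf2 is a factor that drives S1pr1, the receptor for exit from the thymus. The S1pr1 region was 6.54, 8.13 and 5.33 CPM in SKG iNKT2, 1.94 to 3.01 in BALB/c iNKT2 and at most 0.642 in iNKT1. Proximal T cell receptor signalling genes held 7 of 572 (1.22%), among them Cd3e, Ptprc, Themis, Ubash3a and Rasgrp1, and 26 (4.55%) in the opposite set, beside 1.01% and 6.44% of all regions. The Themis region, 6.98, 9.78 and 11.8 CPM in SKG iNKT2 and 1.79 to 4.82 in BALB/c iNKT2, was higher in SKG iNKT1 at a low level (log2 change 2.78, SE 0.57, edgeR adjusted p 0.0029), with 2.17 and 3.501 when BALB/c iNKT1 replicate 1 or 2 was left out.

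The list of NFAT and Egr axis genes held 1 of 389 regions (0.257%), an Irf4 exon region, and 31 (7.97%) in the opposite set, near the 6.44% of all regions that are in it. That region, chr13:30750490-30750879, held an NF-kB string and was 17.1, 9.78 and 11.5 CPM in SKG iNKT2 and at most 6.22 in BALB/c iNKT2. Genes that define the subsets held 2 of 263 regions for the iNKT1 list (0.760%, Klrb1c and Gzmb), 2 of 322 for the iNKT2 list (0.621%, Zbtb16 and Ccr7) and 2 of 93 for the iNKT17 list (2.15%, both Ccr6) beside 1.01% of all regions. Lists count regions within 100 kb of a coding start, and introns of Rora, of the iNKT17 list, held 7 more regions of the set beyond its counts. The Zbtb16 intron region, chr9:48803294-48804164, was 43.7, 27.9 and 32.0 CPM in SKG iNKT2 and 18.2, 14.4 and 13.5 in BALB/c iNKT2, with 22.7 and 24.6 in BALB/c iNKT1 and 15.2 and 20.6 in SKG iNKT1 (log2 change -0.40, SE 0.14, edgeR adjusted p 0.072). The Gzmb region, at 13.6 and 14.4 CPM in SKG iNKT1 and 5.82 and 6.48 in BALB/c iNKT1, was higher in SKG iNKT1 (log2 change 1.19, SE 0.17, edgeR adjusted p 8.9e-05). Gzmb encodes granzyme B. Survival genes held 2 of 95, both at Bcl2. Introns of Bcl2, whose product blocks apoptosis, held 4 more regions of the set beyond 100 kb from its start, with ratios of 2.40 to 5.54. The strongest of them, chr1:106612348-106613198, was 34.3, 42.5 and 35.9 CPM in SKG iNKT2, 9.69 to 13.5 in BALB/c iNKT2, 130 and 137 in SKG iNKT1 and 103 and 84.1 in BALB/c iNKT1. All 4 were higher in SKG iNKT1 in the fit of 4 libraries and none in the fit of 10. Of all regions, 5.16% and 1.66% were higher in these fits. Phosphodiesterases held 2 of 140 (Pde4a and Pde7a, with the Pde4b regions lying farther than 100 kb from a coding start), immature thymocyte markers 1 of 19 (Dntt, the template-independent polymerase), and interferon response genes 0 of 65. The B cell, myeloid and epithelial lists held 0 of 15, 9 and 13.

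By nearest gene, without a list, other genes with several regions in the set were Grap2 with 8 of 25 and Chd2 with 8 of 66, Btg1 with 7, Sfrp2 with 5 of 8, and Pim1 and Dusp5 with 4 each. Grap2 encodes GADS, an adaptor of T cell receptor signalling. Pim1, a kinase induced by cytokines through STAT proteins, had 3 of its 4 regions with an NF-kB string, and their sum was 46.2, 30.0 and 38.8 CPM in SKG iNKT2, 12.5 to 16.5 in BALB/c iNKT2 and 43.1 to 52.2 in the iNKT1 libraries. Dusp5, a phosphatase of Erk, had sums of 32.2 to 41.2, 12.9 to 16.6 and 36.9 to 53.0 CPM in the same order. At both genes the iNKT1 libraries lay closer to SKG iNKT2 than to BALB/c iNKT2, whose lower level than SKG iNKT2 was set by the rule. Over the regions of each locus outside the set, the BALB/c iNKT2 means summed to 66.1 CPM at Pim1 and 120 at Dusp5. In the other 3 groups these sums were 124 to 161 and 155 to 195 CPM.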

How the data were processed

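ATAC-seq was measured in 10 libraries. The deposited table holds counts of transposase insertions per region, although it is called normalized. As the methods state, the authors mapped reads to mm10 with Bowtie 1.0, trimmed those left unmapped with Trim Galore and mapped them again, removed mitochondrial reads and, with Picard, duplicate reads, called peaks per library with MACS2, merged them into 1 set of regions without chromosome Y and blacklisted regions, and counted insertions in each region. Here the deposited starts, counted from 0, were raised by 1.

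The members and gene lists were chosen with earlier results of these data known. CPM used TMM factors (edgeR 4.0.16, R 4.3.3) over all regions. The iNKT1 genotype contrast was fitted on 4 libraries with edgeR's quasi-likelihood F test over all 94823 regions, with Benjamini-Hochberg adjusted p under 0.05. An exact test of 2 against 2 libraries cannot go below p = 0.333. Alternatives were a fit of all 10 libraries, DESeq2 1.42.0, limma 3.58.1 voom with quantile normalization, other scalings and filters, and omission of each library. Replicate numbers did not pair the iNKT1 libraries (correlation of deviations -0.006). The scripts were tested on simulated data.

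Regions were annotated with GENCODE M21 and the nearest protein-coding start within 100 kb for gene lists, and motif strings were searched on both strands of the central 300 bases of GRCm38. Named regions were the 6 of largest ratio, the 6 of highest SKG iNKT2 mean, the 6 higher and 4 lower in SKG iNKT1 with smallest p, the 3 on each side of the ratio threshold, the highest of each gene list and of the 3 windows with most members. Other regions and all loci beyond these were chosen after their values were seen, and sequence is printed for a selection. A few items that these rules would name are not reported here. Library totals were 14988590 to 36342635 insertions, and intervals and floors (3 insertions) cover counting error only.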

Additional observations from a re-analysis of the deposited data

Results flagged for a closer look

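In 228 of the 960 regions (23.75%) chosen as higher in SKG iNKT2, both SKG iNKT1 libraries lay below both BALB/c iNKT1 libraries. In these the genotypes stood in opposite order in the subsets. A larger share of all regions, 29.0%, lay in that order in iNKT1. The difference between subsets was not tested, since the iNKT2 values chose the regions. The 4 with the smallest p were at Fam49b (log2 change in iNKT1 -1.78), in a Kdm2b intron (-1.21), in an Ern1 intron (-1.06) and in a Babam2 intron (-1.92).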

How the results depend on the processing

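Quantile normalization gave 2009 regions meeting the rule, subtraction of each library's floor 1961, removal of the GC trend 1811, a pseudocount of 2 CPM 357, a ratio of 1.5 gave 4042 and a ratio of 3 gave 169. Other settings stayed between 657 and 1338. The median of all regions in iNKT2 moved by more than 0.1 (log2) with library totals (-0.10), the floor (0.15) and GC (0.12). In iNKT1, 30 regions of the set were lower with all 10 libraries fitted, 35 with DESeq2 and 16 with voom, which gave a median log2 change of 0.32 and 65.5% above 0, against 64.1% with the GC trend removed. Leaving out 1 iNKT1 library gave 0 to 212 higher, 0 to 103 lower, 0 to 69 higher at the stricter thresholds and 56.1% to 63.5% above 0, the zeros coming from either BALB/c library. In the fit of 10 libraries, chosen after seeing the data, the same omissions gave 84, 90, 96 and 88 higher and 24, 3, 5 and 7 lower, 43 to 48 higher at the stricter thresholds and 56.0% to 63.5% above 0. The 2009 regions held 329 higher and 122 lower, and 17.0% of their neighbours were in the set. The share open in BALB/c iNKT1 was 37.4% with library totals and 62.2% at a lower level limit, and promoters within 1 kb held 7.19%. With the replicate block 229 were higher and 106 lower, and the numbers are not known to pair libraries. Of 17 named iNKT1 changes none turned sign, and each called one lost its call without either BALB/c iNKT1 library. The causes were not tested.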
